A study of Mus musculus with 10 samples.

Results

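The 4 Hox clusters (HoxA, HoxB, HoxC and HoxD) were followed through 4 sorted progenitor populations of mouse bone marrow. Members were all genes whose symbol is Hox, a cluster letter and a paralog number, measured by probe sets annotated to that symbol alone. They came to 38 of the 23152 genes on the array, with 10 in HoxA, 10 in HoxB, 9 in HoxC and 9 in HoxD. The 38 genes rested on 227 probe sets, with 2 to 14 per gene and a median of 5.5. A gene's value is the mean of its probe sets on a log2 scale.

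All groups were sorted from the bone marrow of adult C57BL/6 mice with no labelled treatment or mutation. Lymphoid-primed multipotent progenitors (LMPPs) were lineage-negative with high cKit, Sca-1 and Flt3, and were split by CD127, the interleukin-7 receptor alpha chain, into CD127- LMPPs (3 arrays) and CD127+ LMPPs (3 arrays). Common lymphoid progenitors (CLPs) were lineage-negative cells that carry CD127, with high Flt3 but low Sca-1 and low cKit, and were split by the surface protein Ly6D into Ly6D- CLPs (2 arrays) and Ly6D+ CLPs (2 arrays). Sorted cells were the only source of RNA, and no label states whether an array stands for 1 animal or a pool, so p-values measure the spread between these arrays, which may be technical. Whether LMPP and CLP arrays were hybridised together is also not stated, and a batch that ran with the cell type cannot be told apart from it.

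Hox genes encode homeodomain transcription factors that lie in clusters in the order of their paralog numbers, and genes of the same number in different clusters are paralogs. They are best known for patterning the body axis of the embryo. In blood, the HoxA genes are expressed in stem cells and early progenitors and are lowered as cells mature, and Hoxa9 is needed for normal numbers of lymphoid progenitors. Hox proteins bind DNA together with TALE homeodomain cofactors of the Meis and Pbx families, and trithorax complexes with Kmt2a (MLL) keep the clusters active while polycomb complexes keep them silent.

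Across all genes the arrays of a group correlated at 0.973 to 0.986 (Pearson's r over 8 pairs), and arrays of different groups at 0.955 to 0.981 (37 pairs). These values are across genes, which are not independent replicates. The lowest pair within a group was that of the Ly6D- CLPs. Of the sort markers, Il7r (CD127) was called higher in CD127+ than in CD127- LMPPs and in CLPs than in CD127- LMPPs, Ly6d was called higher in Ly6D+ than in Ly6D- CLPs, and Kit was called lower in CLPs than in either LMPP group. Ly6d was also called higher in CD127+ than in CD127- LMPPs, by 3.91, and lower in Ly6D- CLPs than in CD127+ LMPPs, by 2.79 on the log2 scale (limma adjusted p = 1.03e-06 and 0.00031). Ly6a, which encodes Sca-1, was not called in any of the 4 main comparisons, although the sort took low Sca-1 in CLPs, and Flt3 was not either. Differences were tested with limma, and a gene was called where its Benjamini-Hochberg p, taken over the whole table of 23152 genes, was under 0.05.

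A low-signal limit of 4.45 was set at the 95th percentile of 1422 olfactory, vomeronasal and taste receptor genes, which blood progenitors are not known to use. Probe sets differ in how brightly they bind, so levels of different genes are not ranked. The limit says only whether a gene's signal stood above that of most of these receptor genes. Of the 38 Hox genes, 11 (28.95%) had a mean above the limit in at least 1 group, against 57.3% of all genes and 7.454% of the receptor genes. HoxA held 7 of these 11, namely Hoxa2, Hoxa3, Hoxa5, Hoxa6, Hoxa7, Hoxa9 and Hoxa10. HoxD held Hoxd4, Hoxd8 and Hoxd10, HoxB held Hoxb5, and HoxC held 0 of its 9 genes. Of single probe sets, 37 of 72 in HoxA stood above the probe-set limit of 5.05, against 9 of 62 in HoxB, 7 of 46 in HoxC and 7 of 47 in HoxD.

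By position, the HoxA genes above the limit were 2 of 3 anterior genes (paralogs 1 to 4), 3 of 3 central genes (paralogs 5 to 8) and 2 of 4 posterior genes (paralogs 9 to 13). Hoxa11 and Hoxa13, at the posterior end, had no group mean above 3.76. Just inside the limit, Hoxa10 had its highest group mean at 4.52, and just outside it Hoxa4 had 4.40. The other 27 genes had means over all arrays of 2.53 to 4.27. Of these, 15 still had at least 1 probe set above the probe-set limit, which came to 21 of their 148 probe sets. The second probe set of Hoxc4 had group means of 6.27 to 6.93, for example, and the fourth of Hoxb9 had 5.88 to 6.39. Paralog groups 5 and 10 were the groups with 2 members above the limit, Hoxa5 with Hoxb5 and Hoxa10 with Hoxd10. In paralog group 9, Hoxa9 stood above it and Hoxb9, Hoxc9 and Hoxd9 did not, with highest group means of 4.03, 4.32 and 2.79.

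**Figure D1:**
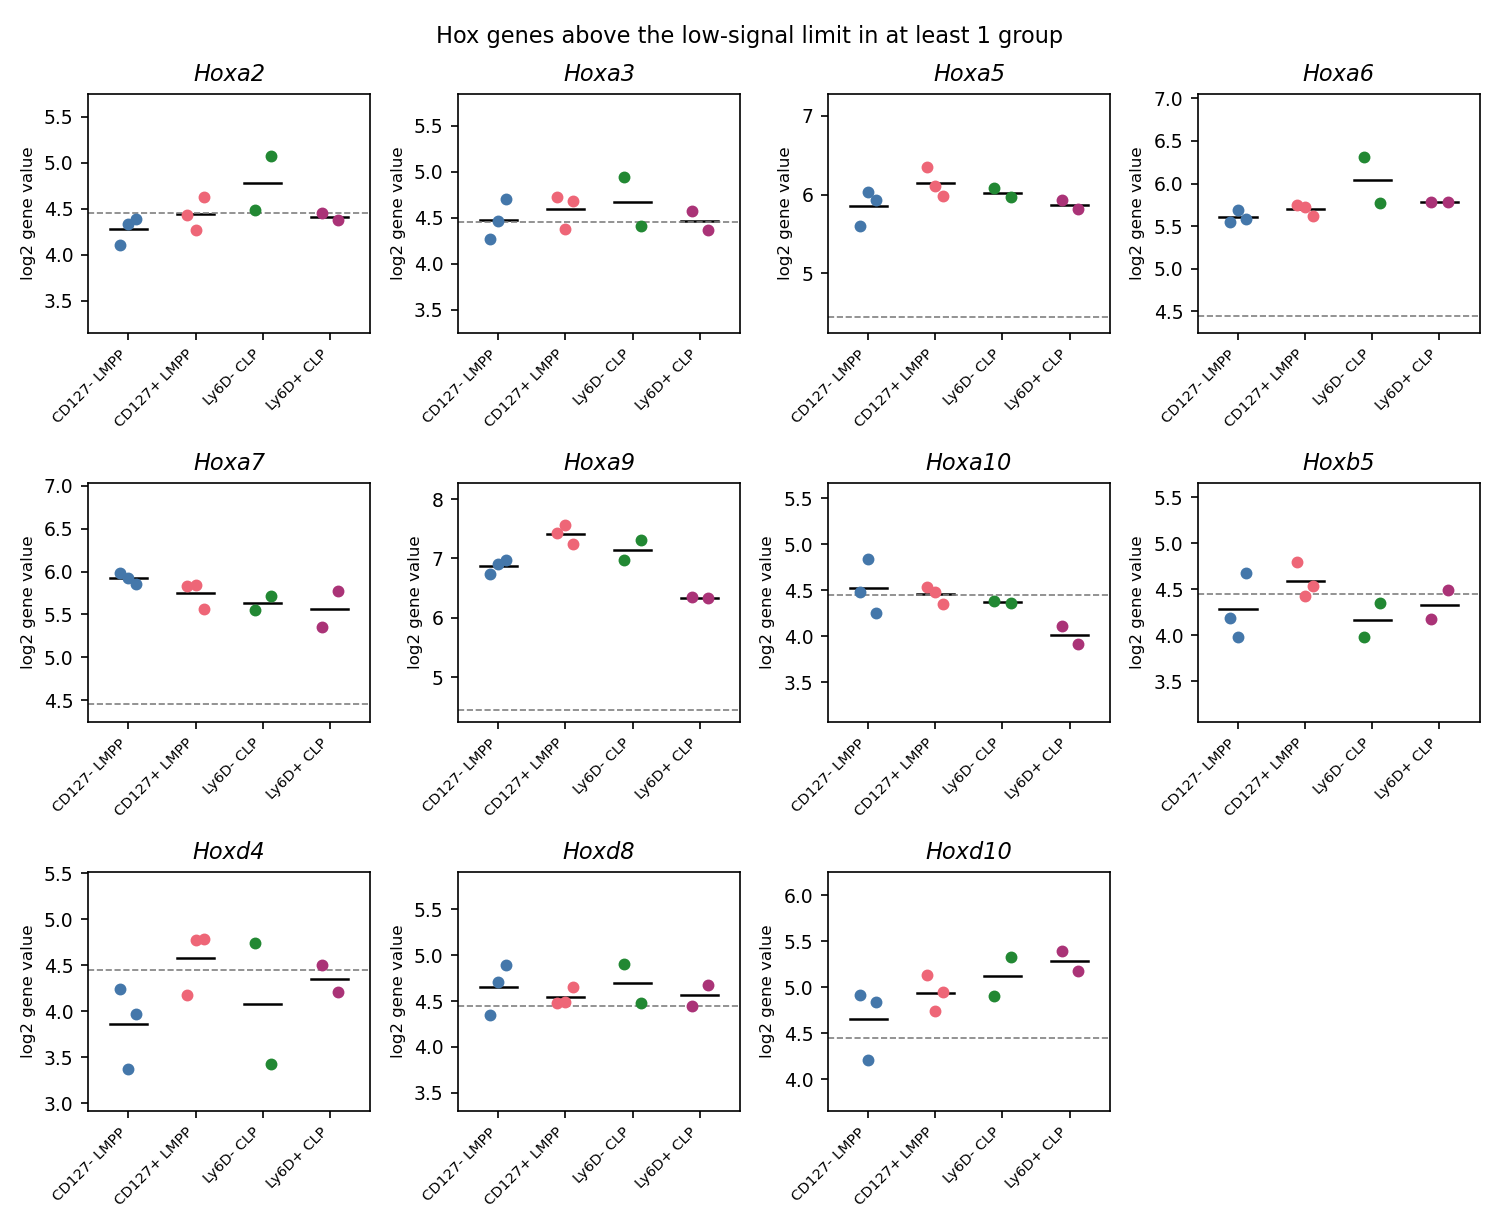
Log2 gene values of the 11 Hox genes above the low-signal limit in at least 1 group. Each point is 1 array, each bar a group mean, and the dashed line is the limit of 4.45; every panel has its own axis. Hoxa9 was lowest in the Ly6D+ CLPs, at 6.35 and 6.33, below all 8 other arrays.

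Hoxa9 differed between the groups as follows. The 3 CD127- LMPP arrays had 6.73, 6.90 and 6.97 (mean 6.87 ± 0.12 SD, n = 3). The CD127+ LMPP arrays had 7.43, 7.56 and 7.25 (7.41 ± 0.15 SD, n = 3). The Ly6D- CLP arrays had 6.97 and 7.30 (7.14 ± 0.23 SD, n = 2) and the Ly6D+ CLP arrays 6.35 and 6.33 (6.34 ± 0.02 SD, n = 2). All CD127+ LMPP arrays were thus above all CD127- LMPP arrays, the Ly6D- CLPs overlapped with the CD127+ LMPPs and lay above the CD127- LMPPs by the smallest margin (6.974 against 6.969), and the Ly6D+ CLPs lay below all others.

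Hoxa9 fell from CD127+ LMPPs to CLPs, taken as the equal mean of both CLP groups, by 0.67 on the log2 scale (SE 0.14, 1.59-fold, limma adjusted p = 0.0168). It was the 1 Hox gene of 38 called in this comparison (2.63%), against 6.18% of all genes called in either direction and 3.94% called lower. The arrays of the sides overlapped through the second Ly6D- CLP array. Split by Ly6D, the Ly6D+ CLPs were lower than the CD127+ LMPPs by 1.07 (SE 0.16, 2.10-fold, limma adjusted p = 0.00528, no overlap), a comparison in which 4.03% of all genes were called. The Ly6D- CLPs differed from the CD127+ LMPPs by -0.27 (limma adjusted p = 0.411), where 2.06% of all genes were called.

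The call in all CLPs was lost when 1 array was left out in 4 of 10 cases: limma's adjusted p was 0.0633 without CD127+ LMPP replicate 1, 0.0802 without replicate 2, 0.0527 without Ly6D+ CLP replicate 1 and 0.0535 without replicate 2. The difference itself stayed between -0.75 and -0.59 in the 10 cases. The call was also lost with the median of the probe sets as the gene's value, at -0.74 (limma adjusted p = 0.0746), and with the brightest probe set, at -0.23 (limma adjusted p = 0.565). In bulk RNA of sorted cells, fewer cells that transcribe a gene and less of its RNA per cell cannot be told apart.

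Between the LMPP groups, Hoxa9 was 0.55 higher in CD127+ cells (SE 0.14, 1.46-fold, limma adjusted p = 0.125), which did not pass the threshold. No Hox gene of the 38 was called there, against 1.47% of all genes, and 2 (5.263%) had an unadjusted limma p under 0.05, as did 11.1% of all genes. Arrays did not overlap for Hoxa9 and Hoxd1 (higher) and Hoxa7 (lower), which is 3 of 38 genes where 8.46% of all genes did not overlap in the higher and 9.27% in the lower direction. Between the CLP groups, Hoxa9 was 0.80 lower in Ly6D+ cells (SE 0.18, 1.74-fold, limma adjusted p = 0.174), again without passing the threshold. There 0 of 38 Hox genes and 0.0993% of all genes were called, and 3 Hox genes (7.895%) had an unadjusted limma p under 0.05, as did 9.101% of all genes.

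Ordered by group mean, Hoxa9 was highest in CD127+ LMPPs, then Ly6D- CLPs, then CD127- LMPPs, then Ly6D+ CLPs. No neighbouring pair in that order passed the threshold. Ly6D- CLPs against CD127- LMPPs gave 0.27 (limma adjusted p = 0.36), in a comparison with 7.1% of all genes called. Ly6D+ CLPs against CD127- LMPPs gave -0.52 (limma adjusted p = 0.0631), where 10.9% were called. Both CLP groups together differed from the CD127- LMPPs by -0.13 (SE 0.14, limma adjusted p = 0.612).

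Other cell markers also differed between the groups, and their part in the values of Hoxa9 was not tested. In CLPs against CD127+ LMPPs the median difference was -1.68 for markers of mature granulocytes and -1.075 for erythroid markers. It was -0.44 for stem cell markers, -1.40 for granulocyte and monocyte progenitor markers and 0.38 for B lineage markers. Counts of called markers are to be read against 1.47% of all genes called between the LMPP groups and 6.18% in CLPs against CD127+ LMPPs. In CD127+ LMPPs, 7 of 11 markers of mature granulocytes were called higher than in CD127- LMPPs, and 8 of 11 were called lower when CLPs were set against CD127+ LMPPs. The mean of that list was 6.49 to 7.25 in the CD127+ LMPP arrays, 4.47 to 5.55 in the CD127- LMPPs, 4.86 to 4.96 in the Ly6D- CLPs and 4.75 to 5.40 in the Ly6D+ CLPs, with 10, 6, 5 and 7 of its 11 genes above the limit. Of 7 erythroid markers, 3 were called higher in CD127+ than in CD127- LMPPs and 4 were called lower when CLPs were set against CD127+ LMPPs, and the list mean was 5.57 to 6.33 in CD127+ LMPPs, 4.84 to 4.88 in CD127- LMPPs, 4.65 to 4.74 in Ly6D- CLPs and 4.45 to 4.56 in Ly6D+ CLPs. The B lineage list was highest, at 5.99 to 6.01, in the Ly6D+ CLPs, where Hoxa9 was lowest. It was 4.74 to 5.09 in CD127+ LMPPs, 4.57 to 4.71 in Ly6D- CLPs and 4.27 to 4.31 in CD127- LMPPs. Its member Ebf1, a factor that starts the B cell program, was called higher in Ly6D+ than in Ly6D- CLPs.

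Markers of stem and multipotent cells and of granulocyte and monocyte progenitors also differed. Of 10 measured stem cell markers, 4 (Hlf, Gata2, Cd34 and Ndn) were called lower in CLPs than in CD127+ LMPPs and 0 higher, and the list mean was 5.02 to 5.23 in CD127- LMPPs, 5.09 to 5.22 in CD127+ LMPPs, 4.77 to 4.81 in Ly6D- CLPs and 4.59 to 4.66 in Ly6D+ CLPs. Of 8 markers of granulocyte and monocyte progenitors, 5 were called lower in CD127+ than in CD127- LMPPs. When CLPs were set against CD127+ LMPPs, 5 of the 8 (Mpo, Elane, Prtn3, Ctsg and Ms4a3) were called lower and 0 higher. The list mean was 7.38 to 8.15 in CD127- LMPPs, 6.81 to 6.95 in CD127+ LMPPs, 5.73 to 6.03 in Ly6D- CLPs and 5.15 to 5.34 in Ly6D+ CLPs. All 4 mature T cell markers stayed below the limit in every group.

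The upstream sequence of Hoxa9 is printed with those of its neighbours Hoxa7 and Hoxa10, which lie on the same strand of chromosome 6, so that the windows of the gene that was called and of neighbours that were not can be read side by side. The windows are the 250 bases before the annotated start in RefSeq on GRCm38.p6, minus strand, 5′ to 3′. Capitals mark GGAA, the core that ETS factors bind, or TTCC, the same core on the opposite strand. Hoxa9 lies at chr6:52227371-52227620, Hoxa7 at chr6:52218574-52218823, and the 2 annotated starts of Hoxa10 at chr6:52240855-52241104 and chr6:52234940-52235189.
Hoxa9: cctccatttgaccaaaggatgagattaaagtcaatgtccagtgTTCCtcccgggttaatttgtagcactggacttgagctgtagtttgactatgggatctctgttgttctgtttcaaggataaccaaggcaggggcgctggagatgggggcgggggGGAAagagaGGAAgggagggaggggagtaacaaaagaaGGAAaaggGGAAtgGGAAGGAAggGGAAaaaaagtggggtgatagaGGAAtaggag
Hoxa7: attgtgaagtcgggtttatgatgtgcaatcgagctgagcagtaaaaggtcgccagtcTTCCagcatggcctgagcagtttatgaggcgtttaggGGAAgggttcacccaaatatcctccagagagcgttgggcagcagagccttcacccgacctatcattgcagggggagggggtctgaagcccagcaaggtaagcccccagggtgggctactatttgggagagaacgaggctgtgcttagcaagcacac
Hoxa10, upstream start: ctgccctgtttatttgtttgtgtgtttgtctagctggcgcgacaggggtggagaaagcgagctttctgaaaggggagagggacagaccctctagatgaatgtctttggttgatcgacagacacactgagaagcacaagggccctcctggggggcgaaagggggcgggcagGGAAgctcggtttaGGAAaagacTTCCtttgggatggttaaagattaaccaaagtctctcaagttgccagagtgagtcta
Hoxa10, downstream start: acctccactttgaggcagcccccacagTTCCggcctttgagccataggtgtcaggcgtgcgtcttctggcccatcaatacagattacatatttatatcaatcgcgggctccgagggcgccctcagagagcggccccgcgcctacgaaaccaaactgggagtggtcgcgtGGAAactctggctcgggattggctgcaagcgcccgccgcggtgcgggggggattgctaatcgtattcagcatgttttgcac

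The Hoxa9 window held 9 GGAA cores, counted on both strands, and 3 CG dinucleotides. The Hoxa7 window held 2 cores and 7 CG, the upstream Hoxa10 window 3 and 7, and the downstream Hoxa10 window 2 and 20. Over 32851 RefSeq windows of this length, 93.4% held at least 1 GGAA on either strand, the median was 3, and 0.505% held 9 or more. The median window had 6 CG, 37.8% of windows had 3 or fewer, and the 24 windows found for 22 Hox genes had a median of 12.5. The Hoxa9 window held 0 matches to TGACAG, a sequence bound by Meis proteins, which 15.9% of windows held, and 0 to TGATTNAT, a site for Pbx and Hox pairs, which 2.82% held. It held 1 E-box (CANNTG), which 66.2% of windows held at least once, and all motifs were searched on both strands. These are counts of letters in the window, with no measurement of binding.

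The 9 probe sets of Hoxa9 are numbered here in the order of their array numbers, and 7 of them had a mean above the probe-set limit. In CD127+ against CD127- LMPPs all 9 had a positive difference, from 0.20 to 1.41. In CLPs against CD127+ LMPPs all 7 above the limit had a negative one, from -1.60 to -0.23, and the eighth and ninth, below the limit, had 0.03 and -0.07. In Ly6D+ against Ly6D- CLPs all 9 were negative, from -1.51 to -0.33. Probe sets of a gene share its RNA and are no replicates of each other.

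Hoxa9 probe sets differed in size. The third had 9.35, 9.45 and 8.88 in CD127+ LMPPs, 8.52, 8.43 and 9.03 in CD127- LMPPs, 8.16 and 8.01 in Ly6D- CLPs and 6.98 and 7.38 in Ly6D+ CLPs. It was lower in both CLP groups than in either LMPP group on every array. The first had 9.996, 10.02 and 10.47 in CD127+ LMPPs, 9.26, 9.80 and 9.74 in CD127- LMPPs, 10.21 and 10.10 in Ly6D- CLPs and 9.80 and 9.64 in Ly6D+ CLPs. There the Ly6D- CLPs lay among the CD127+ LMPPs, and the CLPs as a whole differed from the CD127+ LMPPs by -0.23 against -1.60 for the third probe set. Fitted one by one over 233753 probe sets, 0 of the 227 Hox probe sets were called in the 4 comparisons. Of all probe sets, 0.0364% were called in CD127+ against CD127- LMPPs, 1.48% in CLPs against CD127- LMPPs, 0.018% in CLPs against CD127+ LMPPs and 0.00257% in Ly6D+ against Ly6D- CLPs. In CLPs against CD127+ LMPPs 22 Hox probe sets had an unadjusted limma p under 0.05, and the smallest adjusted p was 0.0893, for the third of Hoxa9.

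**Figure D2:**
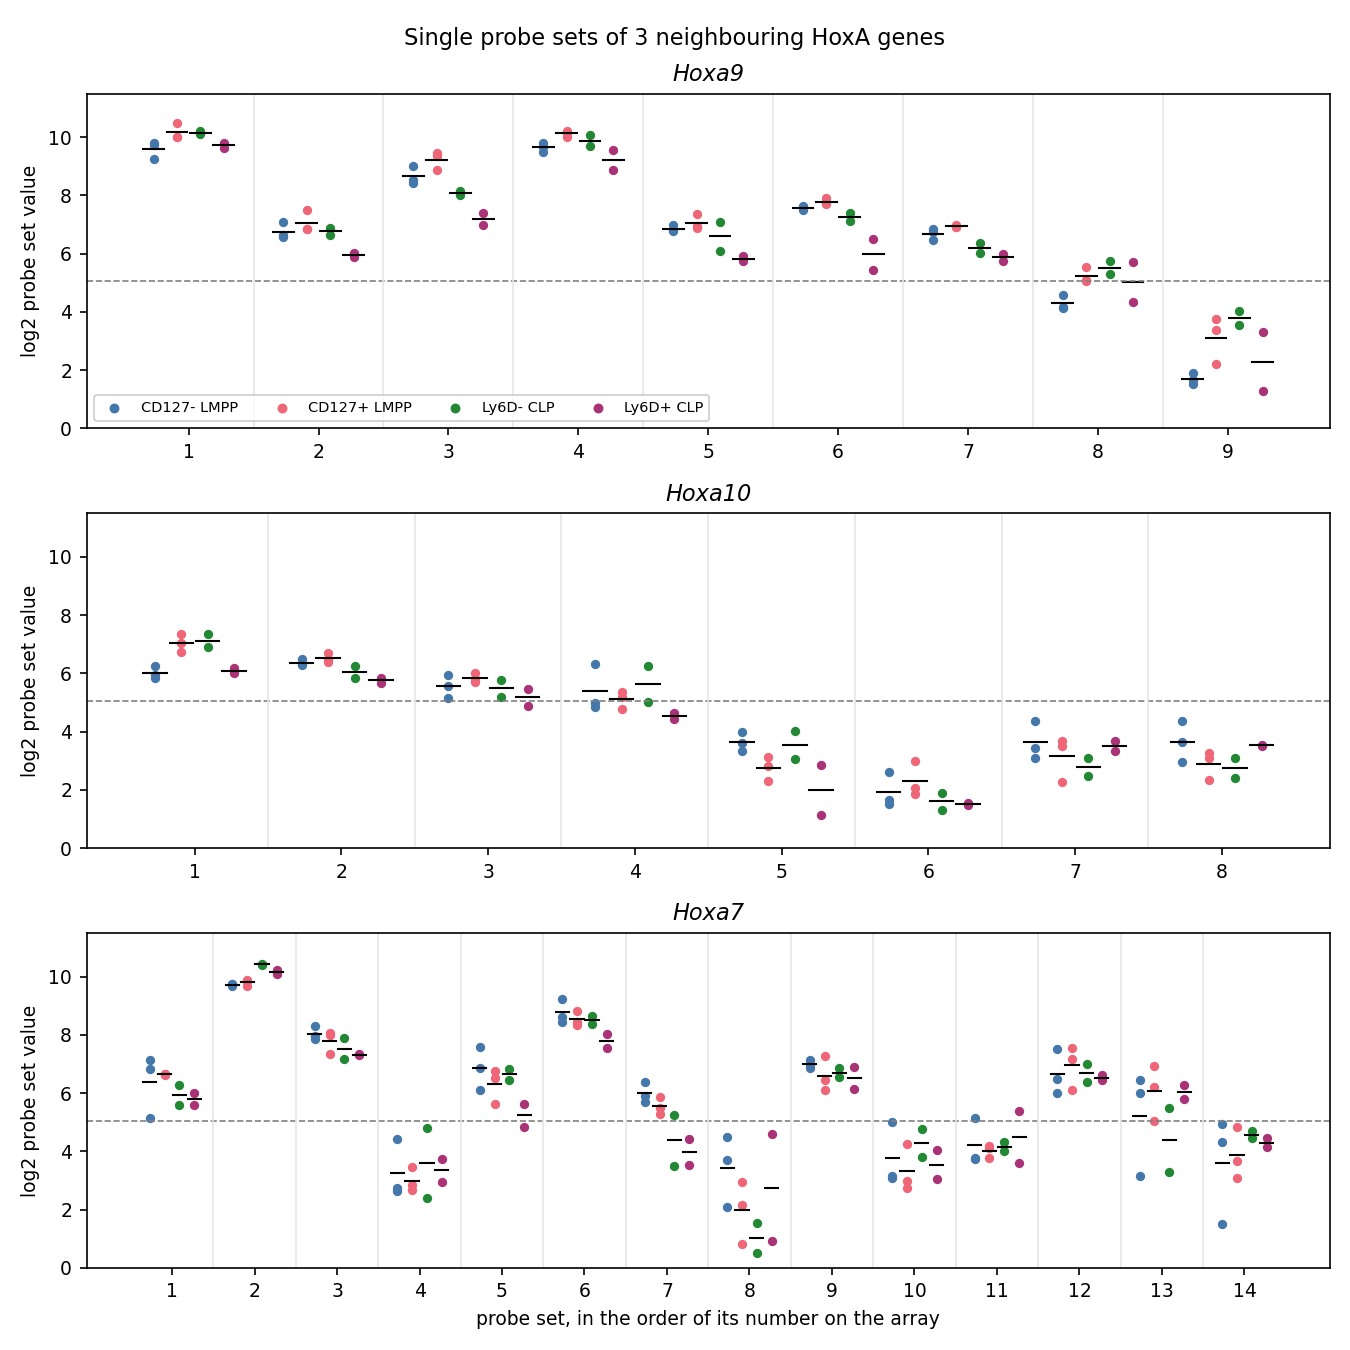
Log2 values of the single probe sets of Hoxa9, Hoxa10 and Hoxa7, in the order of their array numbers. Points are arrays coloured by group, black bars are group means, and the dashed line is the probe-set limit of 5.05; the third Hoxa9 probe set shows the CLPs below every LMPP array, and the second Hoxa7 probe set shows them above.

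Hoxa10, the next posterior gene, had 4.48, 4.84 and 4.25 in CD127- LMPPs, 4.54, 4.48 and 4.34 in CD127+ LMPPs, 4.38 and 4.36 in Ly6D- CLPs and 4.11 and 3.91 in Ly6D+ CLPs. The Ly6D+ CLPs lay below all other arrays, by 0.36 against the Ly6D- CLPs (SE 0.20, limma adjusted p = 0.633). Both CLP means of Hoxa10 lay below the limit, so no fold is given for that difference. Of its 8 probe sets, 4 were above the limit. The first of these, in the order of the array, had 7.04, 6.72 and 7.35 in CD127+ LMPPs and 6.91 and 7.34 in Ly6D- CLPs, against 5.85, 5.94 and 6.26 in CD127- LMPPs and 6.20 and 6.00 in Ly6D+ CLPs. On that Hoxa10 probe set CD127+ LMPPs and Ly6D- CLPs lay above the other groups without overlap, with 1.02 between the LMPP groups (limma adjusted p = 0.463 over probe sets) and -1.03 between Ly6D+ and Ly6D- CLPs (limma adjusted p = 0.532).

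Hoxa7 had 5.98, 5.92 and 5.86 in CD127- LMPPs, 5.83, 5.84 and 5.56 in CD127+ LMPPs, 5.55 and 5.72 in Ly6D- CLPs and 5.35 and 5.77 in Ly6D+ CLPs. Every CD127- LMPP array was above every array of the other groups, and CLPs differed from CD127- LMPPs by -0.32 (SE 0.14, limma adjusted p = 0.168). No Hox gene of the 38 was called in that comparison, against 13.4% of all genes, and 2 had an unadjusted limma p under 0.05, where 26.85% of all genes did. Arrays did not overlap for Hoxa6 (higher in CLPs) and Hoxa7 (lower), where 10.2% of all genes did not overlap in the higher and 13.5% in the lower direction. The probe sets of Hoxa7 disagreed. The second had 10.41 and 10.45 in Ly6D- CLPs and 10.23 and 10.10 in Ly6D+ CLPs, above all 6 LMPP arrays at 9.69 to 9.88, while the seventh differed by -1.81 from CD127- LMPPs to CLPs (limma adjusted p = 0.0883 over probe sets). With the brightest probe set as the gene's value, Hoxa7 was 0.57 higher in CLPs (limma adjusted p = 0.0395).

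Hoxa5 and Hoxa6 are the central HoxA genes beside Hoxa7. Hoxa5 had 5.61, 6.04 and 5.93 in CD127- LMPPs, 6.35, 6.11 and 5.98 in CD127+ LMPPs, 6.08 and 5.97 in Ly6D- CLPs and 5.93 and 5.82 in Ly6D+ CLPs. Its largest difference in the 4 comparisons was 0.29 between the LMPP groups, with overlapping arrays (limma adjusted p = 0.546). Hoxa6 had 5.55, 5.69 and 5.59 in CD127- LMPPs, 5.75, 5.73 and 5.62 in CD127+ LMPPs, 6.31 and 5.77 in Ly6D- CLPs and 5.79 and 5.78 in Ly6D+ CLPs. All 4 CLP arrays of Hoxa6 were above all 6 LMPP arrays, and the first Ly6D- CLP array stood well above the other 3. CLPs differed from CD127- LMPPs by 0.30 (SE 0.14, limma adjusted p = 0.197) and from CD127+ LMPPs by 0.21 (limma adjusted p = 0.443).

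The anterior genes Hoxa2 and Hoxa3 lay close to the limit. Hoxa2 ranged from 4.11 to 5.07 over the 10 arrays, with group means of 4.28, 4.44, 4.78 and 4.41 in the order of CD127- LMPPs, CD127+ LMPPs, Ly6D- CLPs and Ly6D+ CLPs. Hoxa3 ranged from 4.28 to 4.94, with group means of 4.48, 4.60, 4.68 and 4.47. Their differences in the 4 comparisons had limma adjusted p-values of 0.24 to 0.961. On 6 of the 13 Hoxa3 probe sets, the ones above the limit, the difference between CD127+ and CD127- LMPPs was positive each time. Over all 13 it was positive on 8 and negative on 5, from -0.74 to 0.93. The same 6 were also positive in CLPs against CD127- LMPPs.

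Outside HoxA, Hoxd10, the HoxD paralog of Hoxa10, had 4.91, 4.21 and 4.83 in CD127- LMPPs, 5.14, 4.74 and 4.94 in CD127+ LMPPs, 4.90 and 5.33 in Ly6D- CLPs and 5.39 and 5.17 in Ly6D+ CLPs. CLPs differed from CD127- LMPPs by 0.55 (SE 0.19, limma adjusted p = 0.0906), with 1 Ly6D- CLP array inside the range of the CD127- LMPPs. The paralogs Hoxa10 and Hoxd10 thus had opposite signs in this comparison, -0.33 and 0.55, and neither was called. Hoxd4 had 2 probe sets, neither above the probe-set limit, and spread widely, from 3.37 to 4.78 over the arrays, with 4.74 and 3.43 in the 2 Ly6D- CLP arrays. Hoxd8 had group means of 4.54 to 4.69, a span of 0.15. Hoxb5, a gene known as a mark of long-term stem cells, had group means of 4.29, 4.59, 4.17 and 4.33 in the order of CD127- LMPPs, CD127+ LMPPs, Ly6D- CLPs and Ly6D+ CLPs, and stood above the limit in CD127+ LMPPs.

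Genes below the limit supplied the rest of the small unadjusted p-values, and those named here were chosen after their values were seen. Hoxd1 had 3.98, 3.98 and 4.03 in CD127+ LMPPs, above all 7 other arrays at 3.41 to 3.84, and differed between CLPs and CD127+ LMPPs by -0.39 (limma adjusted p = 0.0739). Hoxb7 had 4.13 and 4.05 in Ly6D- CLPs, above all 8 other arrays at 3.20 to 3.75, and differed between Ly6D+ and Ly6D- CLPs by -0.74 (limma adjusted p = 0.253). Hoxd12 had 3.80 and 3.69 in Ly6D+ CLPs and 3.54 and 2.33 in Ly6D- CLPs, a difference of 0.81 that rested on the second Ly6D- array (limma adjusted p = 0.523) and was 0.20 without it. Hoxa13 differed between CLPs and CD127+ LMPPs by 0.45 (limma adjusted p = 0.129). Hoxa13, Hoxb7 and Hoxd1 each had 1 probe set above the probe-set limit, and Hoxd12 had 0. In CLPs against CD127+ LMPPs these probe sets had 0.02, -0.83 and -0.67. That of Hoxd1 had 0.10 between the LMPP groups. That of Hoxb7 had -0.39 in CLPs against CD127- LMPPs and -0.50 in Ly6D+ against Ly6D- CLPs. On it the CLPs as a whole were thus lower than either LMPP group. In CLPs against CD127+ LMPPs the arrays did not overlap for Hoxa6 and Hoxb6 (higher) and Hoxd1 (lower), where 8.81% of all genes did not overlap in the higher and 10.3% in the lower direction. The values of Hoxb6, Hoxb7, Hoxd1, Hoxd12 and Hoxa13 lie below the limit, so no fold is given for them.

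By cluster, the differences were small. In CD127+ against CD127- LMPPs the median difference was 0.11 in HoxA, 0.06 in HoxB, -0.04 in HoxC and 0.07 in HoxD. In CLPs against CD127- LMPPs it was 0.09, -0.02, 0.02 and 0.14, and in CLPs against CD127+ LMPPs -0.04, -0.06, 0.09 and 0.09. In Ly6D+ against Ly6D- CLPs it was -0.18 in HoxA and -0.12 in HoxB, with 7 of 10 genes lower in each, and 0.16 in HoxC and 0.21 in HoxD, with 8 of 9 and 7 of 9 higher. HoxC had no gene mean above the limit in any group, and 7 of its 46 probe sets were above theirs. Over the 21 probe sets above the limit in genes whose mean was not, 13 were higher and 8 lower in Ly6D+ against Ly6D- CLPs, with a smallest limma adjusted p of 0.629 over probe sets. Over all 38 genes the medians of the 4 comparisons were 0.053, 0.030, -0.001 and 0.078, against -0.0051, 0.0164, -0.0008 and -0.0034 over all genes, and the last of these comparisons had 5 Hox genes higher and 5 lower without overlap, where 18.4% and 19.2% of all genes did not overlap. The comparisons with CLPs, and those with the CD127+ LMPPs, share arrays.

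**Figure D3:**
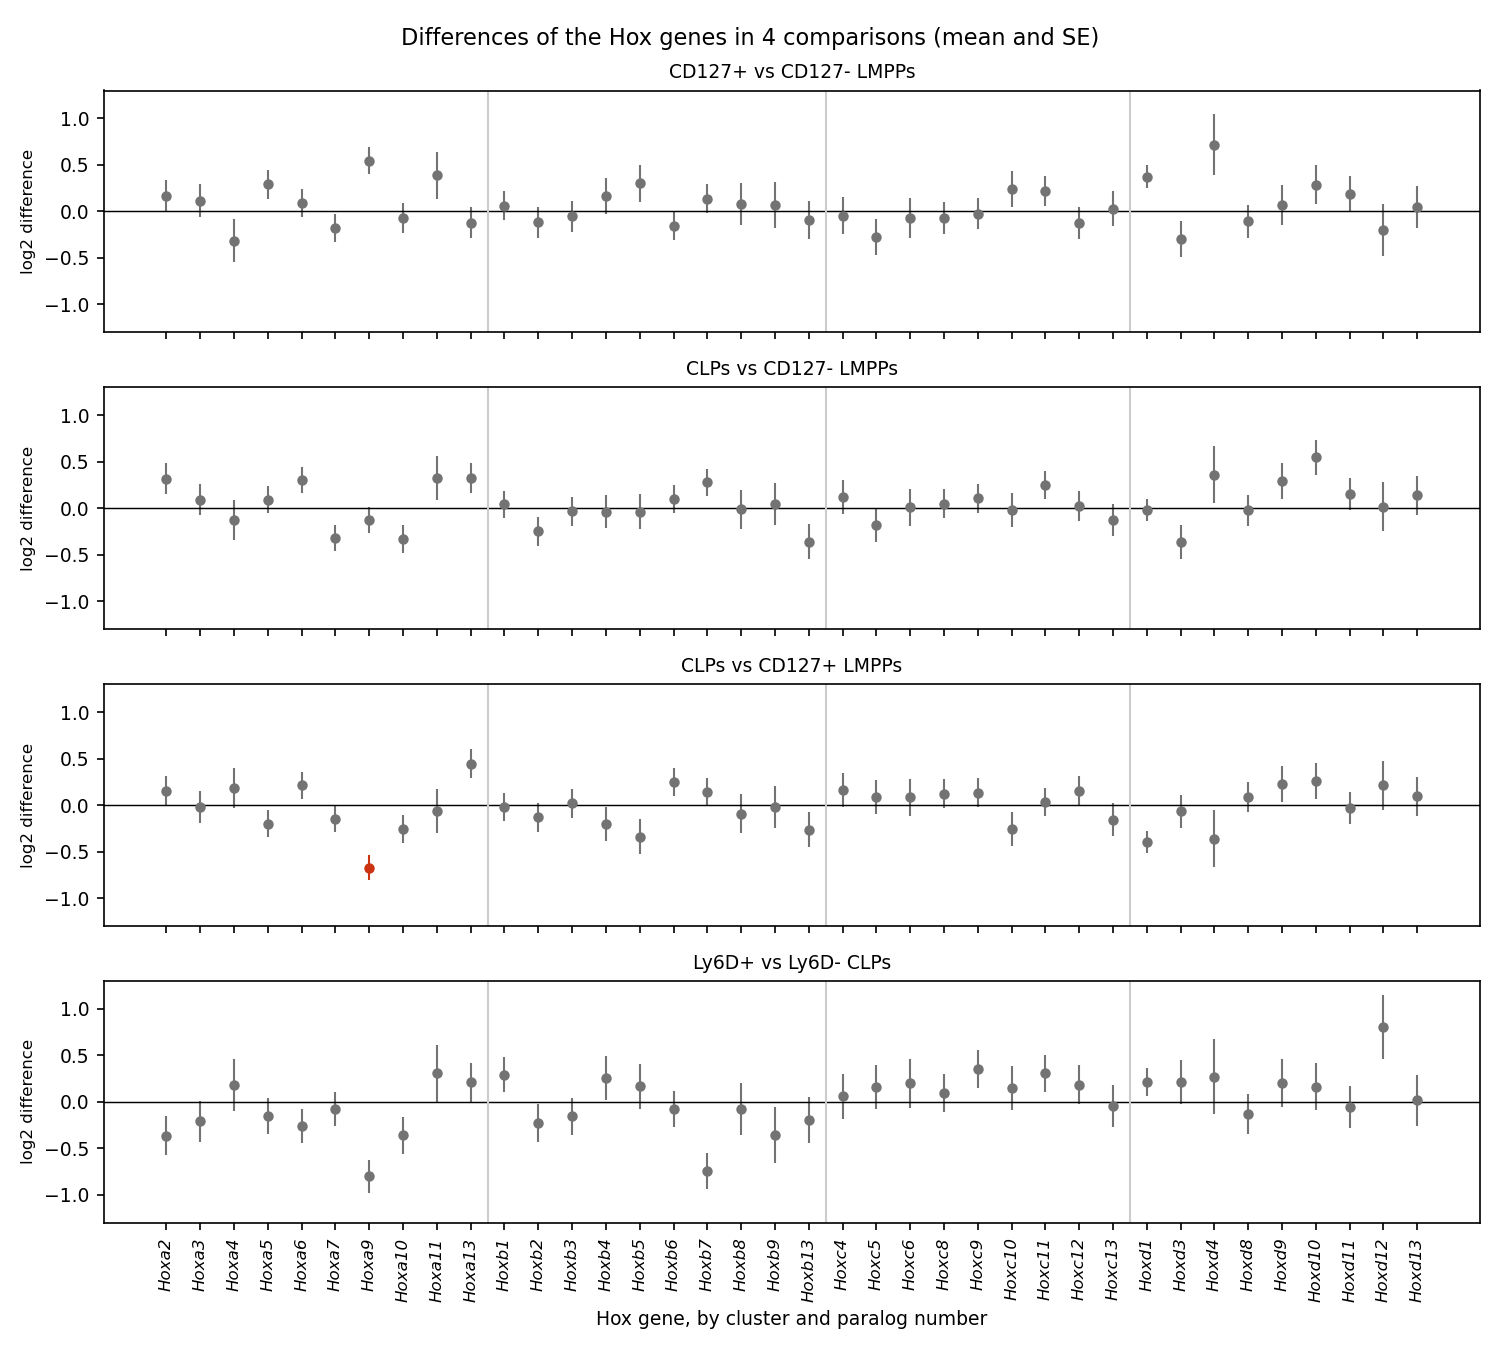
Log2 differences of the 38 Hox genes in 4 comparisons (first group minus second), in the order of cluster and paralog number. Points are limma estimates, bars are 1 SE, grey lines part the clusters, and red marks an adjusted p under 0.05; the 1 red point is Hoxa9 in CLPs against CD127+ LMPPs, at -0.67.

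In CLPs against CD127+ LMPPs and in Ly6D+ against Ly6D- CLPs, the paralogs of Hoxa9 had smaller differences than Hoxa9, with mixed signs. In CLPs against CD127+ LMPPs, Hoxb9 had -0.02, Hoxc9 0.13 and Hoxd9 0.23, with limma adjusted p-values of 0.974, 0.696 and 0.573. In Ly6D+ against Ly6D- CLPs they had -0.35, 0.35 and 0.21. None of these 3 paralogs had a group mean above the limit. Of their single probe sets, 1 of 6 in Hoxb9, 2 of 6 in Hoxc9 and 0 of 5 in Hoxd9 were above it. The Hoxb9 probe set had -0.29 in CLPs against CD127+ LMPPs (limma adjusted p = 0.733 over probe sets), and those of Hoxc9 had 0.60 and -0.19 (limma adjusted p = 0.544 and 0.819). In CD127+ against CD127- LMPPs the Hoxb9 probe set had 0.51, and those of Hoxc9 had -0.36 and 0.33. In Ly6D+ against Ly6D- CLPs they had -0.31 for Hoxb9 and 0.12 and 0.96 for Hoxc9. The Hoxb9 probe set thus had the signs of Hoxa9 in these comparisons, which share arrays, without being called. In CLPs against CD127- LMPPs the signs differed, with 0.22 for the Hoxb9 probe set and -0.13 for Hoxa9, and neither was called. In paralog group 5, Hoxa5 and Hoxb5 had 0.29 and 0.30 between the LMPP groups and -0.20 and -0.34 in CLPs against CD127+ LMPPs, all with overlapping arrays.

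Among the TALE cofactors, 10 were analysed here. Meis1, the main partner of Hoxa9 in blood progenitors, had 7.68, 7.68 and 7.86 in CD127- LMPPs, 8.27, 7.91 and 7.85 in CD127+ LMPPs, 7.63 and 7.78 in Ly6D- CLPs and 7.61 and 7.47 in Ly6D+ CLPs. All 4 CLP arrays were below the 3 CD127+ LMPP arrays, with a difference of -0.39 that did not pass the threshold (SE 0.14, limma adjusted p = 0.131). Tgif1, a TALE transcriptional repressor, was the 1 cofactor called: it rose in CLPs by 0.61 against CD127- LMPPs (limma adjusted p = 0.0148) and by 0.60 against CD127+ LMPPs (limma adjusted p = 0.0307). It had 7.34 and 7.29 in Ly6D- CLPs and 7.46 and 7.74 in Ly6D+ CLPs, above all 6 LMPP arrays at 6.64 to 7.03. Of all genes, 13.4% and 6.18% were called in these comparisons, so 1 of 10 is near the background. The median difference of the 10 cofactors in CLPs was -0.03 against CD127- LMPPs and -0.02 against CD127+ LMPPs. Between the LMPP groups and between the CLP groups 0 of 10 were called, with the largest differences at 0.35 for Meis3 (limma adjusted p = 0.422) and 0.29 for Tgif1 (limma adjusted p = 0.682).

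Of the 13 trithorax and elongation factors that keep Hox clusters active, 6 rose and 1 fell in CLPs against CD127- LMPPs, and 3 rose and 0 fell against CD127+ LMPPs. Of all genes, 13.4% were called in the first of these comparisons and 6.18% in the second. Against CD127- LMPPs the largest were Mllt3, a reader of acetylated histones, at 0.85 (limma adjusted p = 0.00123), Wdr5, a core subunit of the MLL complexes, at -0.72 (limma adjusted p = 0.00845), Dot1l, the histone H3K79 methyltransferase, at 0.69 (limma adjusted p = 0.00575), and Aff4, the scaffold of the super elongation complex, at 0.66 (limma adjusted p = 0.00679). Kmt2a, named Mll1 in the array annotation, was at 0.50. Against CD127+ LMPPs, Dot1l rose by 0.76, Aff4 by 0.52 and Mllt3 by 0.52 (limma adjusted p = 0.00858, 0.0394 and 0.0338). Dot1l had 7.51 and 7.85 in Ly6D- CLPs and 7.61 and 7.75 in Ly6D+ CLPs, above all LMPP arrays at 6.84 to 7.08. The median of the 13 was -0.02 against CD127- LMPPs, where that of all genes was 0.0164, and 0.12 against CD127+ LMPPs. The list mean was 7.21 to 7.38 in Ly6D- CLPs and 7.27 to 7.35 in Ly6D+ CLPs. In CD127- LMPPs it was 7.07 to 7.19 and in CD127+ LMPPs 7.10 to 7.17, below every CLP array. In the comparison between the LMPP groups and in that between the CLP groups 0 of the 13 were called, with the largest differences at -0.39 for Wdr5 (limma adjusted p = 0.365) and 0.22 for Mllt6 (limma adjusted p = 0.837).

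**Figure D4:**
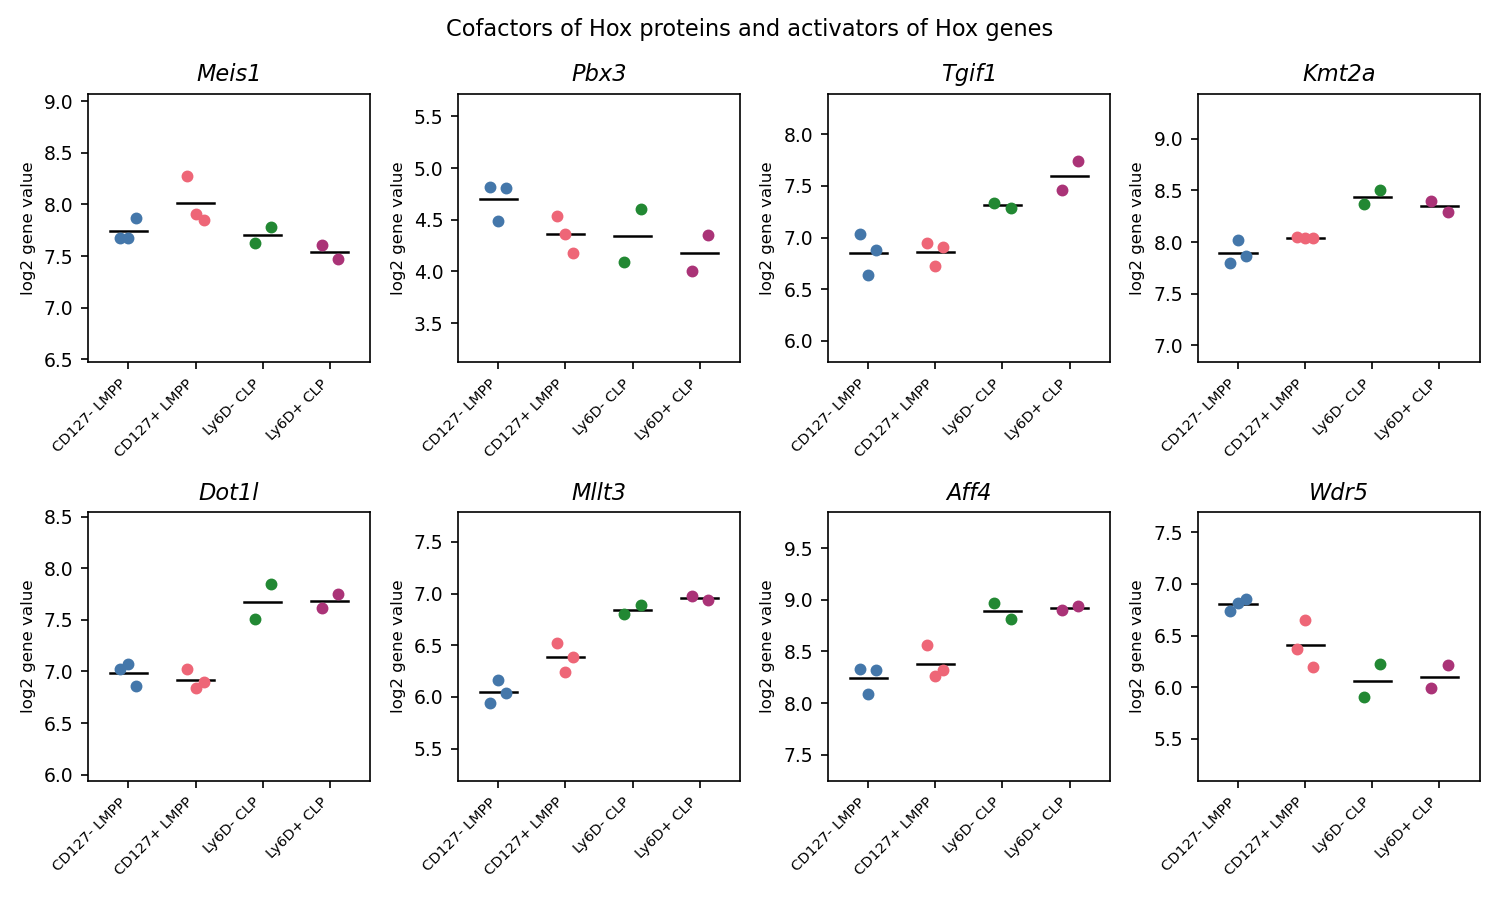
Log2 gene values of 3 TALE cofactors and 5 trithorax or elongation factors. Each point is 1 array and each bar a group mean, with a separate axis for every gene; Tgif1, Kmt2a, Dot1l, Mllt3 and Aff4 lay higher in all 4 CLP arrays than in the 6 LMPP arrays, while Wdr5 lay highest in CD127- LMPPs.

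Of 14 measured polycomb genes, 1 rose in CLPs against CD127- LMPPs: Jarid2, a partner of polycomb repressive complex 2, by 0.62 (limma adjusted p = 0.00517). With 13.4% of all genes called in that comparison, 1 of 14 is no result about polycomb genes. Against CD127+ LMPPs, and within LMPPs and CLPs, 0 of 14 were called, with the largest differences at 0.41 for Rnf2 (limma adjusted p = 0.0677), 0.37 for Jarid2 (limma adjusted p = 0.252) and -0.40 for Bmi1 (limma adjusted p = 0.787). The caudal factors Cdx1, Cdx2 and Cdx4, which switch on Hox genes in the embryo, lay below the limit in every group, with 0 of 3 called and largest differences of -0.17 for Cdx1 (limma adjusted p = 0.808) between LMPPs, 0.38 for Cdx4 (limma adjusted p = 0.302) for CLPs against CD127- LMPPs, 0.40 for Cdx4 (limma adjusted p = 0.326) for CLPs against CD127+ LMPPs and -0.40 for Cdx1 (limma adjusted p = 0.647) between CLPs. Among cluster neighbours and non-coding genes, 12 of 19 were measured. Skap2, an adaptor protein gene beside HoxA, fell in CLPs against CD127- LMPPs by 0.75 (limma adjusted p = 0.00185). It was the 1 of 12 called there, where 13.4% of all genes were. Against CD127+ LMPPs 0 of 12 were called with both CLP groups together, where Jazf1 had -0.58 (limma adjusted p = 0.0502). In Ly6D- CLPs alone Jazf1, a zinc finger gene, was called lower, by 0.82 against CD127+ LMPPs and by 0.69 against CD127- LMPPs on the log2 scale (limma adjusted p = 0.049 and 0.0478). It was the 1 of 12 called against CD127+ LMPPs, where 2.06% of all genes were. Against CD127- LMPPs 2 of 12 were called, Jazf1 and Skap2, where 7.1% of all genes were. Within LMPPs and within CLPs 0 of 12 were called, with the largest differences at -0.42 for Skap2 (limma adjusted p = 0.18) and 0.48 for Jazf1 (limma adjusted p = 0.522).

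Of 14 genes known as targets of Hoxa9 or Meis1, 2 rose and 5 fell in CLPs against CD127- LMPPs, where 13.4% of all genes were called. The largest were Il7r at 5.15, which encodes the CD127 of the sort and so is no finding, Ebf1 at 3.43, Hlf, a stem cell factor, at -1.17, and Cd34, a progenitor surface protein, at -0.87 (limma adjusted p = 1.34e-07, 4.59e-07, 0.00206 and 0.00107). The CD127- LMPP means of Il7r and Ebf1 and the Ly6D+ CLP mean of Hlf lay below the limit, so these differences have only a bound. With such means set at the limit, Ebf1 was at least 4.35-fold higher and Hlf at least 2.15-fold lower in CLPs than in CD127- LMPPs. Against CD127+ LMPPs, where 6.18% of all genes were called, Ebf1 rose by 0.86 and Hlf and Cd34 fell by 0.97 and 0.70 (limma adjusted p = 0.00933, 0.0134 and 0.00908), and Hlf was at least 1.87-fold lower by the same bound. Ebf1, which earlier work places downstream of Hoxa9 in lymphoid progenitors, had 7.83 and 7.86 in Ly6D+ CLPs, where Hoxa9 was lowest, 5.13 and 5.46 in Ly6D- CLPs, 5.80, 5.84 and 5.50 in CD127+ LMPPs and 2.90, 3.33 and 3.20 in CD127- LMPPs. Between the LMPP groups 2 of the 14 rose, Ebf1 and Il7r, where 1.47% of all genes were called. The call of Il7r there follows from the sort by CD127. Between Ly6D+ and Ly6D- CLPs 1 did, Ebf1, where 0.0993% were called. The lists of companions were not chosen independently of earlier results, and 2 of the targets, Cd34 and Hlf, are also stem cell markers. Il7r and Flt3 are also sort markers, and Ebf1 is also in the B lineage list.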

How the data were processed

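Total RNA of sorted cells was extracted with Trizol and labelled with biotin, per the labels' protocols, and hybridised to Affymetrix arrays. Each of 269751 probe sets has 1 value per array in the table of log2 signals that the authors deposited, made with Affymetrix Power Tools per the submitters' processing notes. No log base is stated, and log2 was inferred from values between 0.20 and 14.79. For normalization and genome build, the sources used here name nothing. The arrays' quartiles differed by at most 0.13, so no further scaling was done.

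The 23152 gene values are means over the 233753 probe sets that carry 1 symbol; 5106 with several symbols and 30892 with none were left out of gene values. Groups and replicate numbers came from the labels. All 38 Hox symbols were current in RefSeq. Means of the 4 groups were fitted over all genes with limma 3.58.1 in R 4.3.3, with the empirical Bayes step, after tests on simulated data. Errors are SD for groups and SE for differences. Genes named are Hox genes called in any of the 4 comparisons or above the low-signal limit in any group; of companion lists, up to 4 called genes per comparison, or else the largest difference. The members and lists were chosen with earlier results of these data known. Alternatives were other scalings, the median or brightest probe set, a filter on dim genes, other limma settings, a replicate block and leaving out each array. The number of arrays limits the precision. Figures were drawn with matplotlib 3.10.9 under Python 3.11.15, with tables made in pandas 2.3.3.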

Additional observations from a re-analysis of the deposited data

Results flagged for a closer look

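Of the probe sets annotated to a Hox gene together with another gene, 19 were left out of the gene values. Of these, 5 had a mean over all arrays above the probe-set limit of 5.05, the 95th percentile of receptor gene probe sets. A probe set shared by Hoxa7 and the non-coding gene Mira had 8.31, with group means of 8.43 in CD127- LMPPs, 8.43 in CD127+ LMPPs, 8.18 in Ly6D- CLPs and 8.08 in Ly6D+ CLPs, and all 4 CLP arrays lay below all 6 LMPP arrays. A probe set shared by Hoxa11 and its antisense gene Hoxa11as had 6.05, while the probe sets of Hoxa11 alone stayed below the limit. A probe set shared by Hoxa3 and 5730446D14Rik had 5.52. Both others were shared by Hoxd4 and Hoxd3, with 5.54 and 5.20. Which of the genes gave the signal was not tested.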

How the results depend on the processing

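Counts of called Hox genes were 0, 0, 1 and 0 in CD127+ against CD127- LMPPs, CLPs against CD127- LMPPs, CLPs against CD127+ LMPPs and Ly6D+ against Ly6D- CLPs. The first became 1 with a filter on dim genes and 1 with limma's trend and robust settings (Hoxa9 both times, adjusted p = 0.0407 and 0.0322). The second became 1 with the median of the probe sets (Hoxd10), 1 with the brightest probe set (Hoxa7), 1 with the filter on dim genes (Hoxd10), and ran from 0 to 1 when an array was left out. The third became 0 with the median of the probe sets, 0 with the brightest probe set, 0 with Ly6D- CLPs only and 0 with each probe set on its own, a setting chosen after seeing the data, and ran from 0 to 2 when an array was left out. The fourth became 1 with the trend and robust settings (Hoxa9, adjusted p = 0.0386). Hoxa9 in CLPs against CD127+ LMPPs kept its sign in all 20 alternatives, from -1.07 to -0.23, with limma's adjusted p from 0.00159 to 0.565; with the median of the probe sets it was -0.74 (0.0746). With the brightest probe set 2 signs turned: Hoxa7 in CLPs against CD127- LMPPs was 0.57, and Hoxd12 in Ly6D+ against Ly6D- CLPs was -0.21. With the filter on dim genes the fit and the adjustment were both redone on fewer genes. The cause of a change was not tested for any setting.

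Same-numbered arrays of different groups had residuals that correlated at -0.043 to 0.127 (13 pairs) and other pairs at -0.136 to 0.136 (24 pairs). Residuals were taken from group means, so the 2 arrays of a CLP group had opposite values and the pairs are not independent. The ranges therefore cannot decide whether the numbers pair arrays. No label states a pairing, and none was assumed. With the replicate block the counts of called Hox genes were again 0, 0, 1 and 0, and Hoxa9 in CLPs against CD127+ LMPPs was -0.69 (limma adjusted p = 0.0446). Quantile normalization and median centring moved the median of all genes by less than 0.1. With 2 arrays in each CLP group, and most Hox genes below the low-signal limit in every group, small differences were not detectable here.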
